A study of Mus musculus with 18 samples.

Results

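The genes described here are 10 members of the splenic extracellular matrix: the collagen chains Col1a1, Col1a2, Col3a1 and Col4a1, the small leucine-rich proteoglycans Dcn (decorin) and Lum (lumican), the glycoproteins Fn1 (fibronectin) and Sparc, the metalloproteinase inhibitor Timp3, and the ADAMTS-like protein gene Adamtsl4. They were chosen by gene symbol, with earlier results of these data known, and make up 10 of the 19326 entries in the deposited expression table. Expression was measured by RNA sequencing of bulk spleen from ICR mice, an outbred stock, at 10 weeks of age, in 18 libraries that form 6 groups of 3. The HS_AOSFMT group received a high fat diet and streptozotocin (STZ), a toxin of insulin-producing beta cells, together with a faecal microbiota transplant (FMT) that the labels tie to AOS at 10 mg/kg. The HS_conFMT group received the same diet and STZ with a control FMT. The HS_AOS group received the diet, STZ and AOS at 10 mg/kg, the HS group received the diet and STZ alone, the AOS group was given only AOS at 10 mg/kg, and the control group is labelled only as control. The labels do not spell out AOS, and they do not give the dosing schedule, the length of the diet or the sex of the mice. The study's stated aim was to examine how FMT acts on a spleen injured by the diet and STZ.

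The spleen is held together by a capsule, by trabeculae and by a fine reticular meshwork that fibroblastic reticular cells lay down. Type I and type III collagens form the fibrils of this scaffold, type IV collagen forms the sheet of basement membranes around vessels, and decorin and lumican bind to fibrils and regulate their width and spacing. Fibronectin links matrix to integrins on cells, and SPARC is a secreted collagen-binding protein that helps procollagen to be processed into matrix. TIMP3 is an inhibitor of metalloproteinases that stays bound to the matrix, and ADAMTSL4 resembles the ADAMTS proteases but lacks the catalytic domain; in humans it is known as a fibrillin-binding protein whose loss displaces the lens.

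The members lie on several chromosomes of the mm10 build (GENCODE M21 annotation). Adamtsl4 (ENSMUSG00000015850) is at chr3:95676201-95687917 on the minus strand. Timp3 (ENSMUSG00000020044) is at chr10:86300372-86349506 on the plus strand and overlaps Syn3, which runs on the opposite strand. Whether the counting used strand is not given in the sources used here, and Syn3 ranged from 0.68 to 1.55 FPKM over the 18 libraries. Col1a1 is at chr11:94936224-94953042, Col1a2 at chr6:4504814-4541544 and Col3a1 at chr1:45311538-45349706, each on the plus strand. Col4a1 is at chr8:11198423-11312826 on the minus strand and overlaps Col4a2 and the antisense gene Gm15418, so their reads may be shared. Dcn at chr10:97479609-97518143 and Lum at chr10:97565128-97572703 are neighbours on the plus strand. Fn1 is at chr1:71585520-71653200 on the minus strand, with Apol7d annotated antisense to it, and Sparc is at chr11:55394500-55423183 on the minus strand.

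RefSeq promoter windows (GRCm38.p6, the 250 bases before the annotated start) were at hand for 6 of the 10 members. Shown are those of Adamtsl4 and Timp3, the members that differed among the groups, and those of Col1a2 and Col3a1, fibrillar collagen chains whose levels varied together. They are chr3:95687918-95688167 on the minus strand, chr10:86300162-86300411 on the plus strand, chr6:4505368-4505617 on the plus strand and chr1:45311288-45311537 on the plus strand. The Col1a2 window lies inside the GENCODE gene because RefSeq places the start further along. For the same reason the end of the Timp3 window, with its marked match, lies past the GENCODE start. Capitals mark matches, on either strand, to a CCAAT box, to a TATA box spelled TATAAA or to a GC box spelled GGGCGG. The hexamer TGTTCT of glucocorticoid response elements, the E-box CACGTG and the AP-1 element TGANTCA were searched as well, and none of these motifs contains another.
Adamtsl4: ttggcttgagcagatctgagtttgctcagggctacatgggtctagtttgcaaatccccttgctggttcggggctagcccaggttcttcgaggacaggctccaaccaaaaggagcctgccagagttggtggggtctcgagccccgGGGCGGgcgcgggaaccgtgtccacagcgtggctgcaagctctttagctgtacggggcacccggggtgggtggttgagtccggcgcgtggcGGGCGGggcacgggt
Timp3: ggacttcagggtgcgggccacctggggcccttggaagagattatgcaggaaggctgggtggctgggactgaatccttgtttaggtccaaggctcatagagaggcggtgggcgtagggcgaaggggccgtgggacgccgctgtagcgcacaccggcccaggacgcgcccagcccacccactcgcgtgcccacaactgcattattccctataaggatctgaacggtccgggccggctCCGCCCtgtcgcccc
Col1a2: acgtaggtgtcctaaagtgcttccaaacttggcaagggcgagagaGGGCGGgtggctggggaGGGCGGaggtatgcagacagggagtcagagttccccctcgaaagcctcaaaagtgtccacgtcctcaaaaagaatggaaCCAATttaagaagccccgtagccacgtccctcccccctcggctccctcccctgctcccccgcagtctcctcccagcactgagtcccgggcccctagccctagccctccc
Col3a1: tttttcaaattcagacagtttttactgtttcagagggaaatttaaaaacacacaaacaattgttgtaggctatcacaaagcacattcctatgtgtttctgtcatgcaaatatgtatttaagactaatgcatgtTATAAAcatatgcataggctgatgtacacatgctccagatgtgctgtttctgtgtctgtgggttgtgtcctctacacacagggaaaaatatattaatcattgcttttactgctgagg
The Adamtsl4 window held GGGCGG at -106 and -15, counted from the start, and the Timp3 window held its reverse complement CCGCCC at -15. The Col1a2 window held GGGCGG at -205 and -188 and CCAAT at -109, and the Col3a1 window held TATAAA at -117. Of 32851 windows of the same length, 32.7% held GGGCGG, 33.8% CCAAT and 12.4% TATAAA. Matches to TGTTCT (16.1% of windows), CACGTG (6.0%) and TGANTCA (6.7%) were not in these 4 windows. A match is a description of letters and not of a bound site.

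Levels are given in FPKM, a count of fragments divided by the length of the transcript and by the size of the library, so that levels of different genes may be set side by side. Over the 18 libraries Sparc was the most abundant member, with a mean of 155 FPKM. It was followed by Dcn at 70.8, Col1a2 at 37.7, Col3a1 at 31.0, Timp3 at 29.7, Col4a1 and Fn1 at 22.4 each, and Col1a1 at 14.2 FPKM. Adamtsl4 at 2.33 FPKM and Lum at 1.37 FPKM were the lowest. All 10 members passed the filter of at least 1 FPKM in at least 3 libraries, Lum with 13 libraries at or above 1 FPKM and each of the others with 18. Lum and Dcn varied most within groups, with pooled coefficients of variation of 49.2% and 31.4%, whereas Timp3 (9.57%) and Adamtsl4 (11.3%) varied least. The highest library exceeded the lowest 12.4-fold for Lum, 3.71-fold for Dcn and 3.22-fold for Adamtsl4, and between 1.56-fold (Fn1) and 2.22-fold (Col1a1) for the other 7 genes.

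The summed FPKM of a library ran from 666441 to 831448, and 12221 to 12898 genes reached 1 FPKM. The file holds no counts, so the absolute depth is unknown, and relative depth estimated from 29 low genes lay between 0.947 and 1.075. Reticular cell and red pulp macrophage genes that mark spleen were present in each group, with group means of 10.5 to 15.9 FPKM for Tlx1, 190 to 269 FPKM for Cxcl13 and 41.7 to 52.7 FPKM for Spic. The share of haemoglobin genes in a library's FPKM total was 12.9% to 17.6% in HS_AOSFMT, 14.7% to 35.5% in HS_conFMT, 21.5% to 33.1% in HS_AOS, 26.8% to 29.1% in HS, 17.2% to 25.6% in AOS and 21.5% to 34.3% in control libraries. Nothing in the labels states that replicates are different animals, so the p-values rest on a spread between libraries that may be technical. In bulk tissue, fewer cells of a type and less RNA per cell cannot be told apart.

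Among the 6 groups, Adamtsl4 and Timp3 differed and the other 8 members did not pass the test. A moderated F test in limma over all 18 libraries, adjusted over the 12969 genes tested, gave an adjusted p of 0.001 for Adamtsl4 (F = 22.81) and of 0.0124 for Timp3 (F = 11.12). Over all genes, 659 passed (5.08%). Because the members were chosen with earlier results of these data known, their share cannot be weighed against that of all genes. The adjusted p of the other 8 members lay between 0.254 for Col1a1 and 0.601 for Fn1. None of the collagens, proteoglycans and glycoproteins passed, and the 2 members that did encode a protease inhibitor and a protease-like protein without a catalytic domain. That a p misses the threshold does not show that levels were alike, and the intervals below give the sizes that remain possible.

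**Figure D1:**
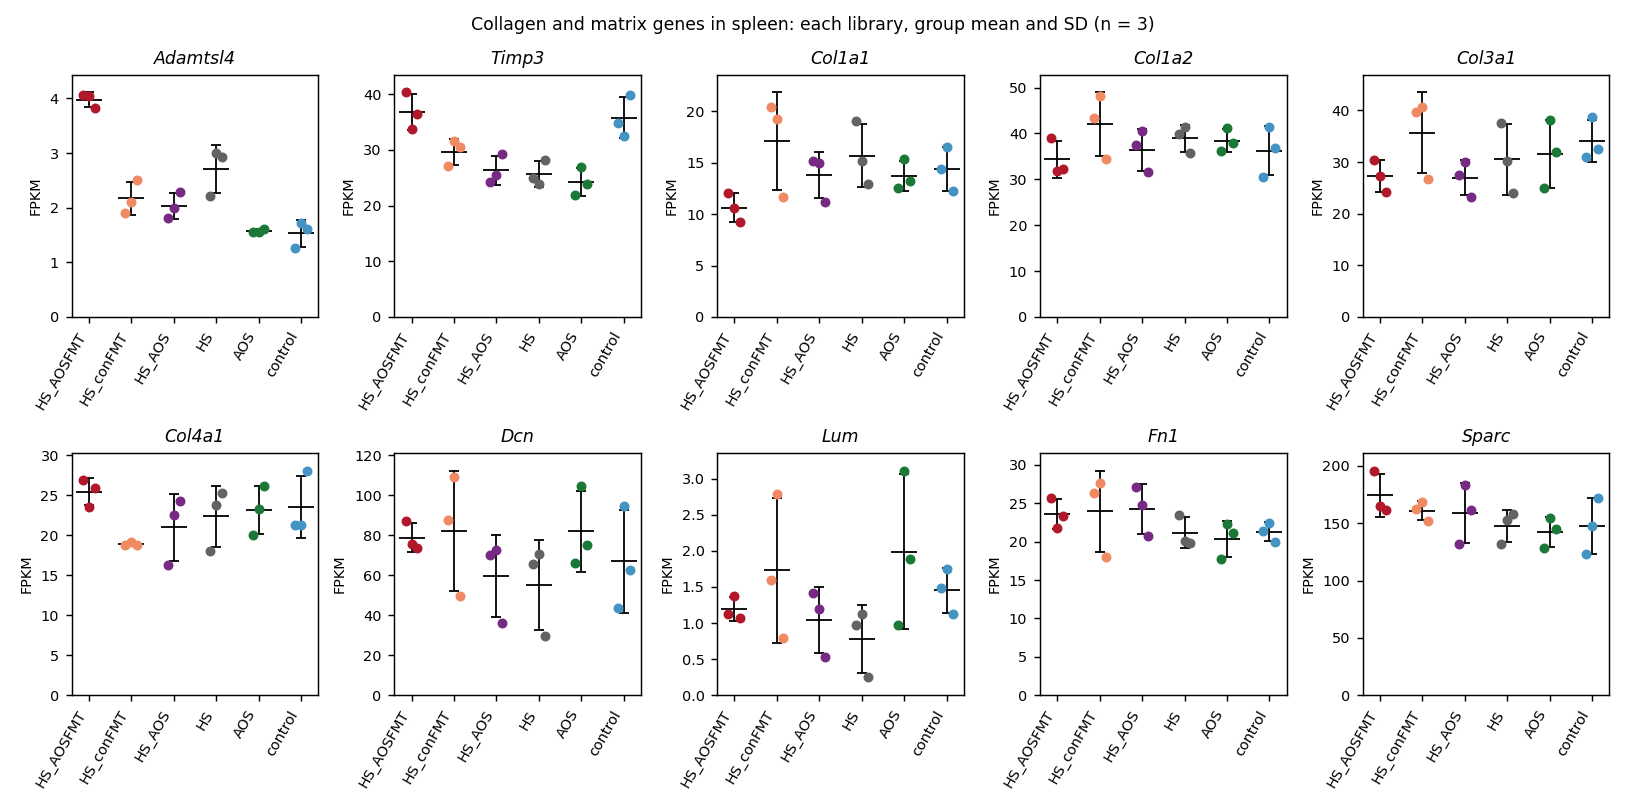
FPKM of the 10 matrix genes in each of the 18 libraries (points), with the group mean (horizontal line) and SD (bars, n = 3), each panel on its own linear axis from 0. Adamtsl4 stands at 3.83 to 4.06 FPKM in HS_AOSFMT, above every other library, and Timp3 is high in HS_AOSFMT and in control.

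Adamtsl4 was higher in the 4 HS groups combined than in AOS and control, and highest where the AOS-linked transplant was added. It had 4.06, 4.05 and 3.83 FPKM in HS_AOSFMT spleens, 1.90, 2.11 and 2.50 in HS_conFMT, 1.81, 2.00 and 2.28 in HS_AOS, and 2.21, 3.01 and 2.93 in HS, against 1.56, 1.56 and 1.61 in AOS and 1.26, 1.72 and 1.61 in control spleens. The lowest of the 12 libraries with diet and STZ (1.81 FPKM) lay above the highest of the 6 without (1.72 FPKM), a small gap. In limma, the 4 HS groups together were higher than AOS and control by 0.51 (SE 0.066, adjusted p = 0.00177) on the log2(FPKM + 1) scale, on which changes of low genes are understated. It was the one member of 10 called in that comparison, where 69 of 12969 genes (0.532%) were called, 51 of them higher (0.393%), and 13 genes (0.1%) had no overlap with all 12 libraries higher. Quantile normalization gave 90 higher and 53 lower in place of 51 and 18. The call held under each of the other 9 settings in which the gene was tested and with each of the 18 libraries left out in turn, with changes from 0.48 to 0.72. This contrast mixes diet and STZ with the transplants that HS_AOSFMT and HS_conFMT also received. Without a transplant on either side, HS against control (0.55, adjusted p = 0.178) and HS_AOS against AOS (0.23, adjusted p = 0.595) were not called in limma.

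Within the mice given diet and STZ, Adamtsl4 rose in HS_AOSFMT relative to HS_conFMT. The means were 3.98 ± 0.130 FPKM in HS_AOSFMT and 2.17 ± 0.304 FPKM in HS_conFMT (SD, n = 3 each), a log2 change of 0.66 (SE 0.11, 95% interval 0.42 to 0.89, adjusted p = 0.00411), and the groups did not overlap. It was the one member of 10 called, against 759 of all genes (5.85%), of which 624 were higher (4.81%) and 135 lower. Non-overlap with HS_AOSFMT higher was common in that comparison, at 21.5% of genes. Other scalings gave 454 higher and 250 lower (quantile), 438 and 315 (median ratio), and 252 and 223 (sum without haemoglobin and pancreatic acinar genes). Under those 3 scalings Adamtsl4 kept a change of 0.66, 0.59 and 0.58 with adjusted p of 0.00422, 0.00484 and 0.00943.

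Relative to HS, Adamtsl4 rose in HS_AOSFMT by 0.43 (SE 0.11, 95% interval 0.20 to 0.66, adjusted p = 0.0268), with means of 3.98 ± 0.130 FPKM in HS_AOSFMT and 2.72 ± 0.441 FPKM in HS (SD, n = 3 each). Adamtsl4 and Timp3 were the 2 of 10 members called, where 1197 of all genes (9.23%) were called, 1048 higher (8.08%) and 149 lower. The median change of all genes in this comparison was 0.101, and scaling by the median ratio moved it to -0.003. Quantile normalization gave 564 genes higher and 230 lower, the median ratio 500 and 291, and the sum without haemoglobin and acinar genes 221 and 158. Under these 3 scalings the change in Adamtsl4 was 0.36, 0.34 and 0.33, and its adjusted p was 0.0596, 0.0632 and 0.0965, so it was not called. The call was also lost when HS_AOSFMT 1, 2 or 3 (0.42, 0.42 and 0.45, adjusted p = 0.0942, 0.0685 and 0.0719) or HS 1 or 3 (0.33 and 0.47, adjusted p = 0.121 and 0.0527) was left out. The HS_AOSFMT libraries are shared with the comparison against HS_conFMT.

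A further 3 comparisons were added after the values were seen. Adamtsl4 was higher in HS_AOSFMT than in control by 0.98 (adjusted p = 0.00014) and than in HS_AOS by 0.72 (adjusted p = 0.002), each of which held in all 16 alternatives that gave a value. The first called 1558 of all genes (12%), 1255 of them higher (9.68%) and 303 lower, and 1 of 10 members. The second called 1111 (8.57%), 833 of them higher (6.42%) and 278 lower, and 2 of 10 members. Quantile, median-ratio and sum scaling gave 855 and 478, 785 and 590, and 569 and 460 genes higher and lower in the first, and 723 and 406, 673 and 515, and 346 and 513 in the second. HS_AOS and AOS, the third comparison, did not overlap for Adamtsl4, as was so with HS_AOS higher for 7.29% of genes, and the change of 0.23 was not called (adjusted p = 0.595), where 5 genes (0.0386%) and 0 of 10 members were called.

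Between HS and control, Adamtsl4 had 2.21, 3.01 and 2.93 FPKM in HS, against 1.26, 1.72 and 1.61 FPKM in control. The log2 change was 0.55 (SE 0.11, 95% interval 0.32 to 0.78), with rank 9 among all genes by p, an unadjusted p of 0.000124 and an adjusted p of 0.178 in limma. The groups did not overlap, as was so with HS higher for 3.89% of genes. This comparison called 2 of 12969 genes (0.0154%) and 0 of 10 members, although 830 genes had an unadjusted p under 0.05. In order of level, HS_AOSFMT stood above HS, HS above HS_conFMT (HS_conFMT against HS -0.23, adjusted p = 0.774) and HS_conFMT near HS_AOS, whose ranges overlapped. AOS and control were lowest and differed by 0.03 (95% interval -0.20 to 0.26, adjusted p = 0.932). All 3 HS_AOSFMT libraries were above all 15 others, which also held for 1042 genes (8.03%), so the position as such was not unusual.

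Timp3 showed another order of groups, with HS_AOSFMT and control at the top and AOS at the bottom. It had 40.3, 33.7 and 36.4 FPKM in HS_AOSFMT, 27.0, 31.6 and 30.4 in HS_conFMT, 24.2, 25.5 and 29.2 in HS_AOS, 24.9, 23.9 and 28.2 in HS and 22.0, 26.9 and 23.9 in AOS, against 34.9, 32.6 and 39.9 FPKM in control spleens. The 6 libraries of HS_AOSFMT and control (lowest 32.55 FPKM) lay above the 12 others (highest 31.55 FPKM). That grouping was chosen after the values were seen, and 10 genes (0.0771%) share it.

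Relative to HS, Timp3 rose in HS_AOSFMT by 0.50 (SE 0.10, 95% interval 0.28 to 0.73, adjusted p = 0.0131), with means of 36.8 ± 3.31 FPKM in HS_AOSFMT and 25.7 ± 2.25 FPKM in HS (SD, n = 3 each). Scaling by quantiles, by the median ratio and by the sum without haemoglobin and acinar genes gave 0.41, 0.39 and 0.38 with adjusted p of 0.0304, 0.0334 and 0.0732. The call was lost without HS_AOSFMT 1 (0.44, adjusted p = 0.0677) or HS 1 (0.48, adjusted p = 0.0532). HS_AOSFMT was also higher than HS_AOS by 0.47 (adjusted p = 0.0152), a call lost without HS_AOSFMT 1 or 3 or HS_AOS 1 (0.40, 0.48 and 0.41), under the sum without haemoglobin and acinar genes (0.36, adjusted p = 0.0742) and in a fit that dropped control 1, HS 1 and HS_AOS 1 (0.41, adjusted p = 0.0697). Against HS_conFMT the change was 0.30 (95% interval 0.08 to 0.52), which was not called (adjusted p = 0.101). The groups did not overlap, as was so with HS_AOSFMT higher for 21.5% of genes.

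In the 2 comparisons with control, Timp3 had rank 17 (HS) and rank 13 (AOS) among all genes by p and was not called. HS had 25.7 ± 2.25 FPKM and control 35.8 ± 3.74 FPKM (SD, n = 3 each), a log2 change of -0.46 (95% interval -0.69 to -0.24, unadjusted p = 0.000473, adjusted p = 0.361), with all HS libraries lower, as was so for 4.65% of genes. AOS had 24.3 ± 2.51 FPKM against the same control libraries, a change of -0.54 (95% interval -0.76 to -0.32, unadjusted p = 0.000107, adjusted p = 0.10), again without overlap, as for 4.79% of genes with AOS lower. AOS against control called 1 gene of 12969 (0.00771%) and 0 of 10 members, with 1471 genes at an unadjusted p under 0.05. Both changes rest on the same 3 control libraries. Control 1 stood apart by its neutrophil markers, summed at 15528 FPKM against 569 to 4225 FPKM in the 17 other libraries. Without it Timp3 changed by -0.48 in HS (adjusted p = 0.412) and by -0.56 in AOS (adjusted p = 0.303). HS_AOS differed from HS by 0.03 (95% interval -0.19 to 0.26). The interaction, the AOS change under diet and STZ minus the AOS change without them, was 0.58 for Timp3 (95% interval 0.26 to 0.89, unadjusted p = 0.00142, adjusted p = 0.402), in a test that called 1 gene (0.00771%) and 0 of 10 members, with 774 genes at an unadjusted p under 0.05. HS_AOSFMT and control differed by 0.04 (95% interval -0.18 to 0.26, adjusted p = 0.81), and that sign turned under the 3 other scalings (-0.04, -0.07 and -0.06).

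**Figure D2:**
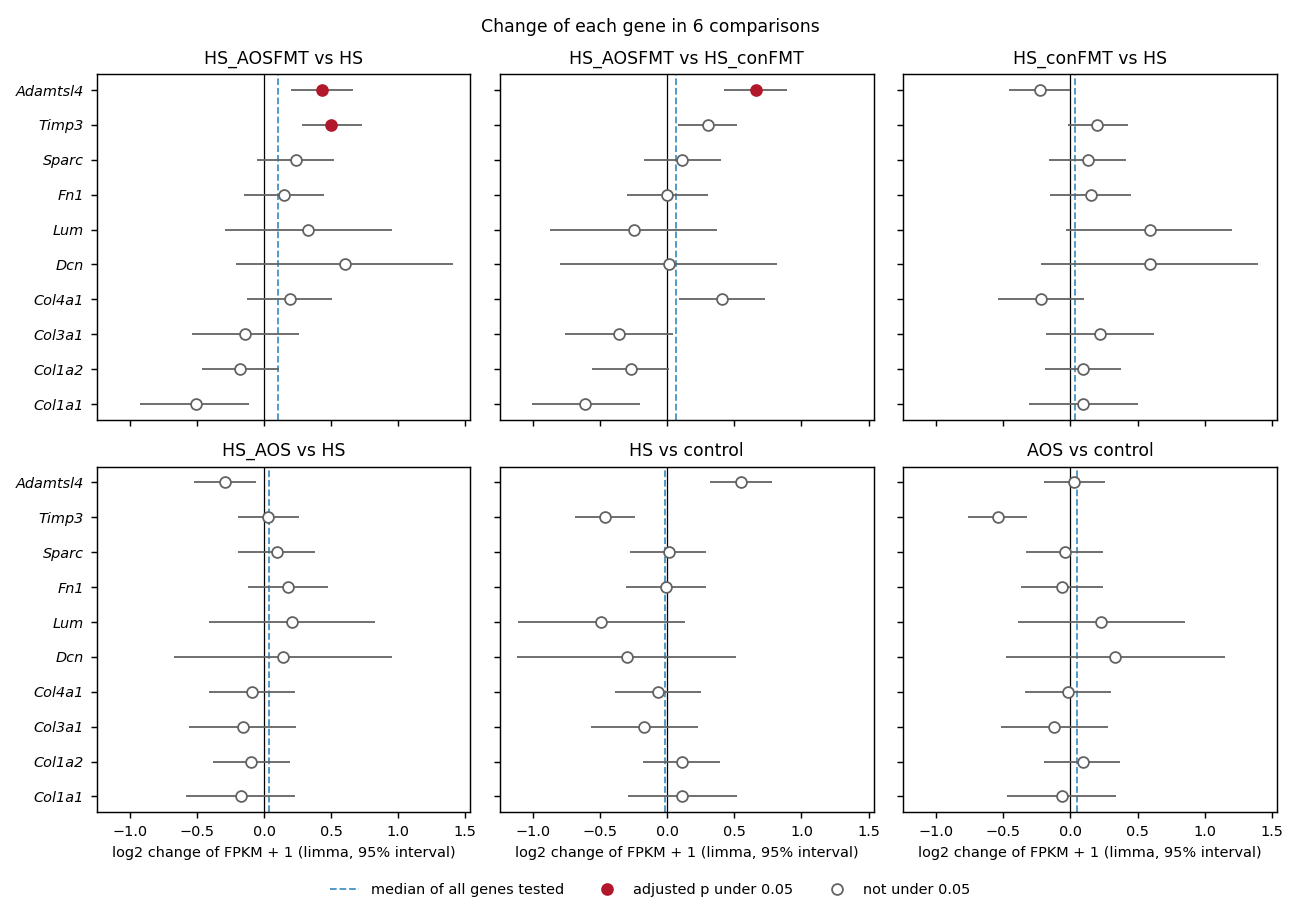
Log2 change of FPKM + 1 for the 10 matrix genes in 6 comparisons, as limma estimates (circles) with 95% intervals (lines). Filled circles mark an adjusted p under 0.05, and the dashed line is the median of all 12969 genes tested. Timp3 (0.50) and Adamtsl4 (0.43) are filled in HS_AOSFMT vs HS, Adamtsl4 (0.66) in HS_AOSFMT vs HS_conFMT, and none in the other 4 panels.

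The fibrillar collagen chains among the members, Col1a1, Col1a2 and Col3a1, had negative estimates in HS_AOSFMT relative to HS and to HS_conFMT. None of them passed in the fit of all libraries without a replicate block. With that block Col1a1 passed in both, as given further below, although same-numbered libraries of these groups did not deviate together. Col1a1 had 12.1, 10.7 and 9.20 FPKM in HS_AOSFMT, 20.4, 19.3 and 11.7 in HS_conFMT, 15.2, 14.98 and 11.2 in HS_AOS, and 19.1, 15.2 and 12.9 in HS, with 12.6, 15.4 and 13.2 in AOS, against 14.4, 16.5 and 12.3 in control spleens. All 3 HS_AOSFMT libraries were below all 3 HS libraries, as was so for 7.64% of genes, and the change of -0.51 (SE 0.19, 95% interval -0.92 to -0.11) had an adjusted p of 0.0969. Against HS_conFMT the change was -0.61 (SE 0.19, 95% interval -1.01 to -0.20, adjusted p = 0.0726), and the groups overlapped because HS_conFMT 3, at 11.7 FPKM, lay below HS_AOSFMT 1. Without HS_conFMT 3 the change was -0.85 and passed (adjusted p = 0.0204). Under the 3 other scalings it was -0.68, -0.68 and -0.69 with adjusted p of 0.0537, 0.0517 and 0.0534.

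Col1a2, the partner chain of Col1a1 in type I collagen, had 39.0, 31.8 and 32.3 FPKM in HS_AOSFMT, 43.4, 48.1 and 34.4 in HS_conFMT, 37.4, 40.5 and 31.5 in HS_AOS and 39.9, 41.3 and 35.7 in HS, with 36.2, 41.2 and 37.9 in AOS, against 30.6, 41.4 and 36.8 in control. Its groups overlapped in every comparison made, and its changes in HS_AOSFMT were -0.18 relative to HS (95% interval -0.46 to 0.11) and -0.27 relative to HS_conFMT (95% interval -0.56 to 0.01). Col3a1, the chain of type III collagen, had 30.3, 27.4 and 24.2 FPKM in HS_AOSFMT, 39.6, 40.7 and 26.7 in HS_conFMT, 27.5, 30.0 and 23.3 in HS_AOS and 37.6, 30.1 and 23.9 in HS, with 24.9, 38.1 and 31.9 in AOS, against 31.0, 38.7 and 32.5 in control. Replicate 3 was the lowest of its group in HS_conFMT, HS_AOS and HS for both genes. The same was so for Col1a1, Dcn, Lum and Fn1, and not for the other members. The change of Col3a1 in HS_AOSFMT was -0.14 relative to HS (95% interval -0.54 to 0.26) and -0.36 relative to HS_conFMT (95% interval -0.76 to 0.04).

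Col4a1, the basement membrane chain, stood out by how close its 3 HS_conFMT values were. It had 26.8, 23.5 and 25.9 FPKM in HS_AOSFMT, 18.8, 19.1 and 18.8 in HS_conFMT, 16.3, 22.5 and 24.3 in HS_AOS and 18.1, 23.8 and 25.3 in HS, with 20.1, 23.2 and 26.1 in AOS, against 21.3, 21.3 and 28.1 in control. HS_AOSFMT and HS_conFMT did not overlap, as was so with HS_AOSFMT higher for 21.5% of genes. The change of 0.41 (SE 0.15, 95% interval 0.09 to 0.73) was not called (adjusted p = 0.119). Relative to HS the change in HS_AOSFMT was 0.19 (95% interval -0.13 to 0.51). The estimates for Col4a1 and Col1a1 in HS_AOSFMT relative to HS_conFMT had opposite signs. Neither passed the threshold in the fit of all libraries without a replicate block.

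The proteoglycans spread widely within groups and were not called in any comparison. Dcn had 87.2, 75.9 and 73.5 FPKM in HS_AOSFMT, 87.5, 109 and 49.7 in HS_conFMT, 70.4, 72.5 and 36.0 in HS_AOS and 65.4, 70.5 and 29.5 in HS, with 66.2, 105 and 75.2 in AOS, against 43.5, 94.7 and 62.7 in control. HS_AOSFMT and HS did not overlap, as was so with HS_AOSFMT higher for 30.8% of genes, and the change of 0.60 had a wide interval (-0.21 to 1.41, adjusted p = 0.312). Lum had 1.13, 1.38 and 1.07 FPKM in HS_AOSFMT, 1.60, 2.79 and 0.80 in HS_conFMT, 1.41, 1.20 and 0.53 in HS_AOS and 0.97, 1.13 and 0.25 in HS, with 0.97, 3.11 and 1.89 in AOS, against 1.49, 1.75 and 1.13 in control. HS 3 was the lowest library for both genes, and HS_conFMT 2 and AOS 2 were the highest for both. The change of Lum in HS_AOSFMT relative to HS was 0.33 (95% interval -0.29 to 0.95), and in HS_conFMT it was 0.59 (95% interval -0.03 to 1.20).

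The sum of fat markers was lowest and highest in the libraries where the proteoglycans were. Over 10 adipocyte markers it was 25.8 FPKM in HS 3, with the lowest Dcn, and 430 and 442 FPKM in HS_conFMT 2 and AOS 2, with the highest Dcn. Between these extremes the match was looser, as HS 1 had a sum of 31.9 FPKM with 65.4 FPKM of Dcn. By group the sum ran from 134 to 213 FPKM in HS_AOSFMT, from 60.5 to 430 in HS_conFMT, from 42.3 to 96.6 in HS_AOS and from 25.8 to 102 in HS, with 141 to 442 in AOS, against 46.8 to 271 in control. None of the 10 markers was at 0 in all 18 libraries. Of the 8 adipocyte markers tested, 0 were called in HS_AOSFMT against HS in limma, although 5 had an unadjusted p under 0.05, with a median change of 1.54. The part of fat in the values of Dcn and Lum was not tested.

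Fn1 and Sparc, the matrix glycoproteins, were among the steadiest members and were not called in any comparison. Fn1 had 25.7, 21.8 and 23.3 FPKM in HS_AOSFMT, 26.4, 27.6 and 17.9 in HS_conFMT, 27.2, 24.8 and 20.7 in HS_AOS and 23.5, 20.1 and 19.9 in HS, with 17.7, 22.3 and 21.1 in AOS, against 21.4, 22.5 and 20.0 in control. Its change in HS_AOSFMT was 0.15 relative to HS (95% interval -0.15 to 0.45) and 0.00 relative to HS_conFMT (95% interval -0.30 to 0.30). Sparc had 196, 165 and 162 FPKM in HS_AOSFMT, 162, 168 and 152 in HS_conFMT, 132, 184 and 161 in HS_AOS and 132, 153 and 158 in HS, with 128, 154 and 145 in AOS, against 123, 147 and 172 in control. The 3 HS_AOSFMT libraries lay above the 3 HS libraries, as was so for 30.8% of genes. The change of 0.24 (95% interval -0.05 to 0.52) was not called (adjusted p = 0.257).

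In the remaining comparisons no member was called. HS_AOS against HS called 0 of 12969 genes (0%), with 674 at an unadjusted p under 0.05, and 0 of 10 members. With the replicate number as a block in these 6 libraries alone it called 1 gene, with 1105 at an unadjusted p under 0.05, and 0 of 10 members. Without the block Adamtsl4 had the smallest unadjusted p of the members (0.017), with a change of -0.29 (95% interval -0.52 to -0.06, adjusted p = 0.862) and overlapping groups. HS_conFMT against HS called 1 gene (0.00771%), with 819 at an unadjusted p under 0.05, and 0 of 10 members, none of which had an unadjusted p under 0.05. Over these 10 genes the median change was 0.21 in HS_AOSFMT against HS, where all genes had a median of 0.10, and 0.00 against HS_conFMT, where all genes had 0.06.

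Across the 18 libraries most pairs among the fibrillar collagens and proteoglycans varied together. Of 45 pairs, 7 had a Pearson correlation of log2(FPKM + 1) with an adjusted p under 0.05 in a two-sided permutation test of 100000 resamples, adjusted over the 45 pairs, and all 7 were positive. They were Col1a1 with Col1a2 (r = 0.78, rho = 0.81, p = 0.00017, adjusted p = 0.0018) and with Col3a1 (r = 0.82, rho = 0.78, p = 5e-05, adjusted p = 0.00112), and Col1a2 with Col3a1 (r = 0.76, rho = 0.76, p = 0.0002, adjusted p = 0.0018). Dcn correlated with Col1a2 (r = 0.67, rho = 0.69, p = 0.00205, adjusted p = 0.0132) and with Col3a1 (r = 0.68, rho = 0.64, p = 0.00153, adjusted p = 0.0115). Lum correlated with Col3a1 (r = 0.75, rho = 0.76, p = 0.0002, adjusted p = 0.0018) and with Dcn (r = 0.83, rho = 0.77, p = 3e-05, adjusted p = 0.00112). All 7 passed by Spearman's rho as well, and so did an eighth pair, Dcn with Fn1 (rho = 0.62, p = 0.00696, adjusted p = 0.0391), for which Pearson's r of 0.55 missed the threshold (adjusted p = 0.0849). Col1a1 did not pass with Dcn (r = 0.39, adjusted p = 0.22) or with Lum (r = 0.46, adjusted p = 0.121). Without the 2 libraries farthest from the median of the first gene, r stayed between 0.56 (Col1a2 with Dcn) and 0.82 (Col1a2 with Col3a1).

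Taken as deviations from the group means, as a description without a test, the same 7 pairs had r from 0.76 to 0.91, and Fn1 joined them with 0.90 to Col1a1 and 0.85 to Col3a1. Col4a1 followed other genes, with 0.79 to Sparc and 0.65 to Timp3. Col1a1 and Col4a1 had r = -0.59 over all libraries, which missed the threshold (adjusted p = 0.056). Timp3 and Adamtsl4, the 2 members that differed among the groups, had r = 0.35 with each other (adjusted p = 0.278). These libraries share the group structure and the varying haemoglobin and fat content given above, whose part in the correlations was not tested.

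**Figure D3:**
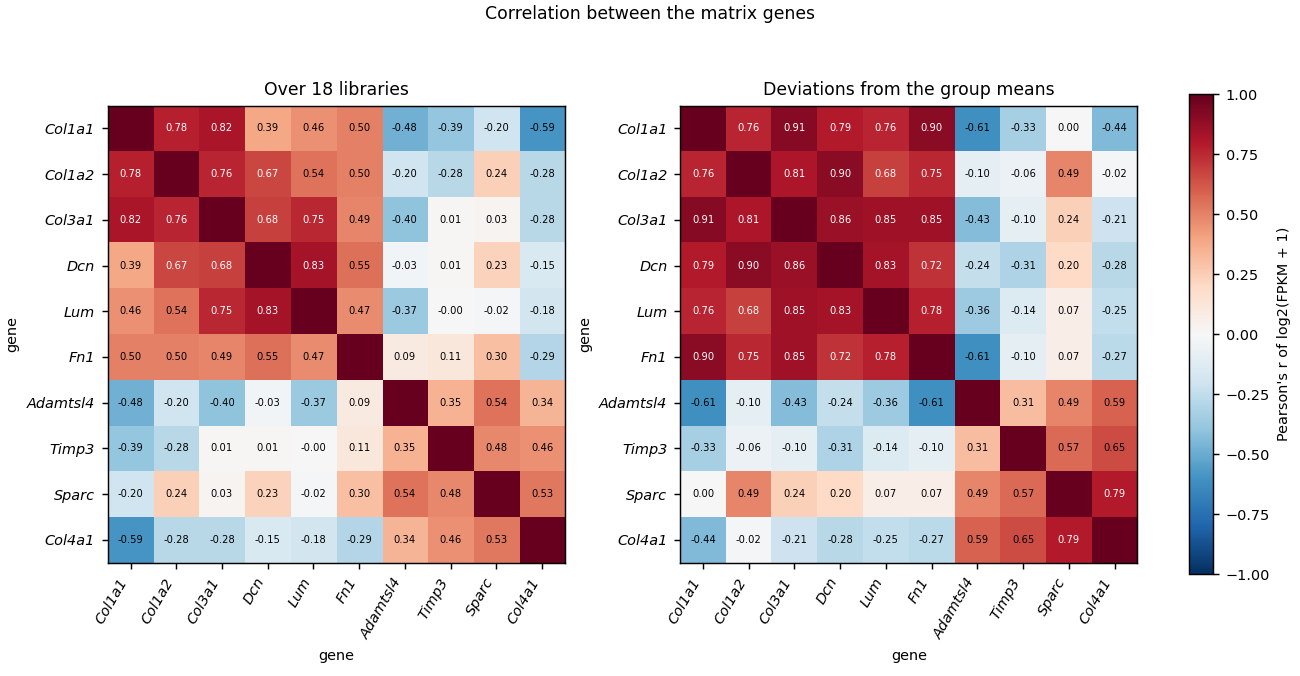
Pearson's r of log2(FPKM + 1) between the 10 matrix genes over 18 libraries (left) and after subtraction of the group means (right), on a scale from -1 to 1, with genes on both axes. Col1a1, Col1a2, Col3a1, Dcn, Lum and Fn1 form a block of positive values on the right, whereas Col4a1 correlates with Sparc (0.79).

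The genes whose levels were most like those of 4 members over the 18 libraries are given by Pearson's r as a description. For Col1a1 they were Lama5 (0.89), a basement membrane laminin chain, Col6a1 (0.82), a chain of type VI collagen, and Podn, Dact3 and Megf6 (0.81 each). Fn1 was followed by Gas1 (0.79), Synj2 (0.77), Lvrn (0.76) and Adgrd1 (0.75). Nearest to Timp3 were Mctp1 (0.86), Atp6ap1 (0.85), Shoc2 and Gfod1 (0.84 each) and Ptpn12 (0.82). For Adamtsl4 the nearest were Slc37a2 (0.94), Plod1 (0.93), a lysyl hydroxylase that modifies procollagen, Lman2l and Rab20 (0.92 each) and Usp19 (0.91).

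The wider matrix pathway was described with 8 lists of 127 other genes, 124 of them in the file and 111 tested. In HS_AOSFMT against HS, 8 were called higher (7.21%), close to the 8.08% of all genes, and 0 lower. In the 4 lists of structural components (fibrillar and associated collagens, basement membrane genes, small leucine-rich proteoglycans, and glycoproteins with elastic fibre genes), 1 of 49 was called, the proteoglycan Aspn (asporin). Median changes in these 4 lists were 0.10, -0.03, 0.23 and 0.07 against 0.10 over all genes. Col5a1, a fibrillar chain, had -0.42 (adjusted p = 0.0549), and Fbn1 (fibrillin-1) had -0.35 (adjusted p = 0.0835). Vcan (versican) had 0.64 (adjusted p = 0.0691). Among 16 matrix receptors 0 were called in limma, with 3 at an unadjusted p under 0.05 and a median of -0.03, and Itgav, an integrin chain that binds fibronectin, had 0.38 (adjusted p = 0.0628).

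Of the 8 called genes, 2 are from the list of collagen processing and 4 from that of TGF-beta signalling and response. Serpinh1, the collagen chaperone, had 63.4, 66.7 and 76.6 FPKM in HS_AOSFMT against 26.1, 35.1 and 42.9 FPKM in HS, a change of 0.99 (SE 0.20, adjusted p = 0.0127) that was lost without HS_AOSFMT 3 or HS 1 (lowest 0.81, adjusted p up to 0.0591). P4ha2, a prolyl hydroxylase subunit that acts on procollagen, had 4.69, 5.14 and 4.91 FPKM in HS_AOSFMT against 1.39, 2.87 and 1.95 FPKM in HS, a change of 0.97 (SE 0.17, adjusted p = 0.00525) that was called in all 16 alternatives. They were 2 of 16 processing genes. Of these 16, 14 had a positive change, with a median of 0.18 where all genes had a median of 0.10. Scaling by the median ratio moved the median of all genes to -0.003, so part of the positive signs may be a general shift. Of 15 TGF-beta genes 4 were called higher, where 8.08% of all genes were. Among them were Ctgf, connective tissue growth factor (0.89, SE 0.22, adjusted p = 0.0273), Tgfb3, a TGF-beta ligand (0.58, SE 0.17, adjusted p = 0.0479), and Tgfbr1, its receptor (0.44, SE 0.12, adjusted p = 0.0367). Others of the list did not rise alike, as Cyr61 had -0.99 (adjusted p = 0.231), Tgfb1 -0.11 and Tgfbi 0.10, none of them called. Tgfb3, called in 4 of 10 other settings, and Tgfbr1 lost the call with any 1 of the 6 libraries left out (0.43 to 0.74 and 0.35 to 0.50), and Ctgf with any but HS 2 (0.77 to 0.98). Of 15 proteases and inhibitors the metalloproteinase Mmp19 was called (0.67, SE 0.16, adjusted p = 0.0206), and it lost the call without HS_AOSFMT 1 or 3 or HS 1 or 3 (0.57 to 0.74). Aspn (0.81, SE 0.16, adjusted p = 0.0117) lost it without HS_AOSFMT 1 or HS 1 (lowest 0.72).

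**Figure D4:**
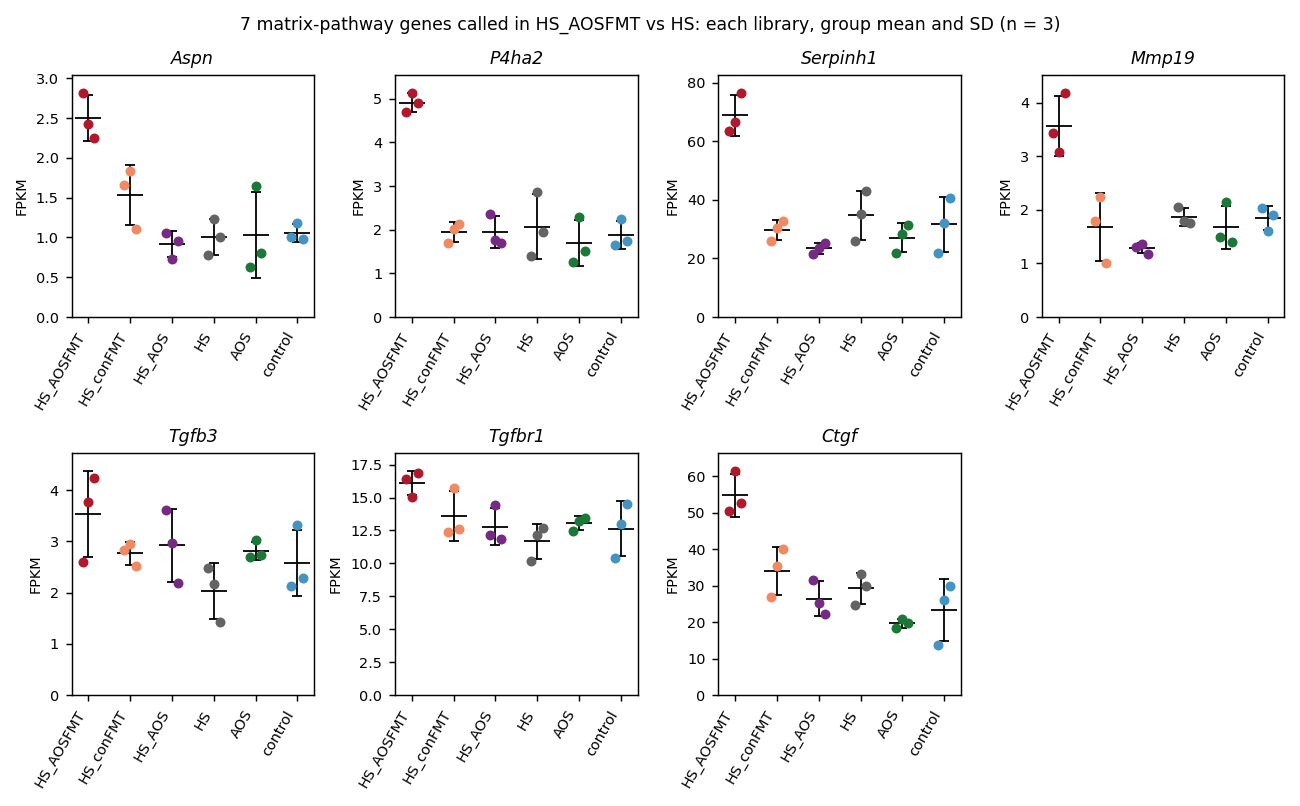
FPKM of 7 of the 8 other matrix-pathway genes called in HS_AOSFMT against HS, in each of the 18 libraries (points), with the group mean (horizontal line) and SD (bars, n = 3), each panel on its own linear axis from 0. The 3 HS_AOSFMT libraries of Serpinh1 (63.4 to 76.6 FPKM) and P4ha2 (4.69 to 5.14 FPKM) lie above all 15 other libraries, as held for 8.03% of genes.

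Against HS_conFMT, 5 of the 111 genes were called higher in HS_AOSFMT (4.5%, against 4.81% of all genes) and 0 lower, none of them among the 49 structural genes. Among them were P4ha2 (1.00, adjusted p = 0.00426), Serpinh1 (1.19, adjusted p = 0.00536), Plod1 (0.88, adjusted p = 0.0101) and Mmp19 (0.79, adjusted p = 0.0106). P4ha2 and Serpinh1 kept the call in all alternatives, whereas Plod1 lost it without HS_conFMT 1 and Mmp19 without HS_AOSFMT 3 (adjusted p up to 0.0506 and 0.0523). With the 4 HS groups against AOS and control, 1 of 111 was called (0.901%), Ctgf at 0.70 (adjusted p = 0.041), which remained called in 5 of 18 fits with a library left out. In the added comparisons, 13 (11.7%) were called higher against control and 12 (10.8%) against HS_AOS, and 0 lower, where 9.68% and 6.42% of all genes were. The processing list gave 5 and 6 of 16: P4ha2, Serpinh1 and Plod1 again, Plod2, another lysyl hydroxylase (0.65 and 0.53), P4ha1, of the same family as P4ha2 (1.33 and 1.41), and against HS_AOS also Plod3 (0.34). Plod3 lost the call with any 1 of the 6 libraries left out, and P4ha1 did so against HS_AOS and kept it in 1 of 6 fits against control. Mmp19 (0.68 and 0.99), Aspn (0.77 and 0.87), Ctgf (1.26 and 1.04) and Itgav (0.46 and 0.42) were called in both comparisons, and Vcan (0.86) against HS_AOS. Against control the metalloproteinase inhibitor Timp1 (0.83, adjusted p = 0.0277) and the TGF-beta antagonists Smad7 (0.65, adjusted p = 0.0345) and Skil (0.58, adjusted p = 0.041) were also called. Without control 1 the changes of Timp1, Smad7, Skil and Itgav were 0.88, 0.42, 0.36 and 0.36, and none of these 4 was called. With 1 library left out Itgav and Vcan kept it in 1 of 6 fits each. In HS vs control, HS_AOS vs HS, HS_conFMT vs HS, AOS vs control, the interaction and HS_AOS vs AOS, 0 of the 111 were called in limma, with 7, 6, 12, 7, 2 and 4 of them, in that order, at an unadjusted p under 0.05.

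Fibroblast, endothelial, smooth muscle and mesothelial markers were not called in HS_AOSFMT against HS or HS_conFMT. The mesothelial and smooth muscle sums did not overlap between HS_AOSFMT and HS, and 30.8% of single genes did the same with HS_AOSFMT higher. In the smooth muscle list, mean Tagln was 88.0 FPKM in HS_AOSFMT and 68.1 FPKM in HS, and Des, Cnn1 and Synpo2 also had higher means. Acta2 (37.7 and 40.0), Myh11 (7.52 and 10.1), Mylk (15.4 and 17.8), Actg2 and Smtn had lower means in HS_AOSFMT. Summed over 15 fibroblast and reticular cell markers the level was 1830 to 2420 FPKM in HS_AOSFMT and 1600 to 1900 FPKM in HS, over 12 endothelial markers 211 to 262 and 179 to 227 FPKM, over 10 smooth muscle and capsule markers 193 to 215 and 186 to 189 FPKM, and over 8 mesothelial markers 44.9 to 51.3 and 18.3 to 40.0 FPKM. In HS_AOSFMT against HS, 1, 3, 1 and 2 genes of these lists, in that order, had an unadjusted p under 0.05 in limma, and their part in the results was not tested. The smooth muscle actin Acta2 was lower in the 4 HS groups combined than in AOS and control (-0.42, adjusted p = 0.0361), a call that held in 7 of 18 fits with a library left out. It was also lower in HS_AOSFMT than in control (-0.59, adjusted p = 0.0127), as was Mylk (-0.34, adjusted p = 0.0435). Against another reference, HS_AOS, Tagln (0.66, adjusted p = 0.00368) and Cnn1 (0.53, adjusted p = 0.0432) were higher in HS_AOSFMT. Mean Tagln was 88.0 FPKM in HS_AOSFMT and 88.2 FPKM in control. Mean Acta2 was 37.7 FPKM in HS_AOSFMT and 33.8 FPKM in HS_AOS. Of the fibroblast and reticular cell list, Ccl21a was higher in HS_AOSFMT than in control (0.89, adjusted p = 0.0407) and Tlx1 lower than in HS_AOS (-0.57, adjusted p = 0.0241). Mylk, Cnn1, Ccl21a and Tlx1 kept these calls in 0, 1, 2 and 2 of 6 fits with a library left out. In the macrophage list, Slc40a1 (ferroportin) was lower in HS_AOSFMT than in HS (-0.60, adjusted p = 0.0408), HS_conFMT (-0.64, adjusted p = 0.0404), control (-0.58, adjusted p = 0.0389) and HS_AOS (-0.74, adjusted p = 0.0166), calls kept in 1, 0, 0 and 4 of 6 fits with a library left out. Vcam1, an adhesion molecule, was higher than in HS_conFMT (0.51, adjusted p = 0.0444, kept in 1 of 6 such fits) and in control (0.71, adjusted p = 0.00717, kept in 6 of 6). The list's sums ran from 669 to 819 FPKM in HS_AOSFMT and from 599 to 915 FPKM in HS.

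Pancreatic acinar markers, from a tissue that lies beside the spleen, were summed at 20.4 to 70.1 FPKM in HS_AOSFMT and 2510 to 22000 FPKM in HS, and 13 of 15 were called lower, by -6.70 (Cpb1) to -8.56 (Ctrb1). With these and the haemoglobin genes left out of the library sum, Adamtsl4 and Timp3 changed by 0.33 and 0.38 in HS_AOSFMT against HS, neither past the threshold, and Adamtsl4 by 0.58 against HS_conFMT and 0.52 in the 4 HS groups, both past it. For the remaining marker lists no gene was called in HS_AOSFMT against HS, namely megakaryocyte and platelet (9 tested), hepatocyte (8), neutrophil (11) and haemoglobin genes (6), of which 1, 0, 0 and 2 had an unadjusted p under 0.05 in limma. With HS 1, HS_AOS 1 and control 1 set aside, of which HS 1 and HS_AOS 1 had the highest acinar sums and control 1 the highest neutrophil sum, Adamtsl4 and Timp3 changed by 0.33 (adjusted p = 0.087) and 0.48 (adjusted p = 0.0527) in HS_AOSFMT against HS.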

How the data were processed

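RNA sequencing of 18 mouse spleen libraries was analysed from the authors' deposited expression table. Per the labels' protocols, tissue was frozen in liquid nitrogen, RNA was extracted with Trizol and a column, and libraries followed Illumina protocols. Per the submitters' processing notes, Bowtie 0.12.2 and mm10 were used; the sources used here do not name the counter, the annotation or the strand setting. The authors deposited FPKM values, a unit inferred from the values. The file holds no counts, so no counting interval is given.

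From these, log2(FPKM + 1) was tested with limma 3.58.1 (R 4.3.3) over all 18 libraries with group as the factor and eBayes with trend and robust (12 residual degrees of freedom). The filter kept 12969 genes that reached 1 FPKM in 3 or more libraries. Tests were two-sided and Benjamini-Hochberg adjusted within each comparison. A gene with an adjusted p under 0.05 is described as called. The script was tested on simulated data. Correlations used Python 3.11.15 with scipy 1.17.1. From each other list, called genes are named (of the acinar list only the extremes), else up to 4 with the smallest F-test p. Beside the called genes, some uncalled genes of the smooth muscle and TGF-beta lists are given. Like-pattern genes are the 5 with the highest r. Values of 2 genes that these rules name are not reported here. Same-numbered libraries deviated together (correlations 0.287 to 0.487) in HS_AOS and HS, for which a fit with the replicate block is also given. The members and lists were chosen with earlier results of these data known. Alternatives were the pseudocount, the filter, the scaling, the model options, the groups in the fit, a replicate block and left-out libraries. Lists of cell type markers covered fibroblast and reticular, endothelial, smooth muscle, mesothelial, macrophage, megakaryocyte, adipocyte, pancreatic acinar, hepatocyte and neutrophil cells and haemoglobin genes.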

Additional observations from a re-analysis of the deposited data

Results flagged for a closer look

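The change of Adamtsl4 relative to HS differed between the 2 transplant groups. In HS_AOSFMT it was 0.43 and in HS_conFMT it was -0.23 on the log2(FPKM + 1) scale. The difference between these changes, which equals the direct comparison of HS_AOSFMT with HS_conFMT, was 0.66 (SE 0.11, adjusted p = 0.00411 in limma over 12969 genes). All 3 HS_AOSFMT libraries (3.83 to 4.06 FPKM) lay above all 3 HS_conFMT libraries (1.90 to 2.50 FPKM), and the 3 HS libraries (2.21 to 3.01 FPKM) are shared by both changes. The same test calls 5.85% of all genes, so a difference of this kind was not rare. The share of haemoglobin genes in a library's FPKM total was 12.9% to 17.6% in HS_AOSFMT and 14.7% to 35.5% in HS_conFMT, and with them and the acinar markers left out of the sum the difference was 0.58 (adjusted p = 0.00943).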

How the results depend on the processing

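Of 2916 recomputed log2 changes, 2550 kept their sign and their side of the threshold, 253 lost a call, 5 gained one and 108 changed sign without being called in either fit; 0 called changes reversed. Of 238 recomputed counts, 212 stayed within 1.5 times of the reported count. The number of members called in HS_AOSFMT vs HS (2 as reported) became 1 under quantile normalization, median-ratio scaling, the groups compared alone and the filter of 5 FPKM, and 0 under the sum without haemoglobin and acinar genes and in a fit that set aside control 1, HS 1 and HS_AOS 1. With 1 library left out it was 0 to 2. The filter of 5 FPKM removes Adamtsl4 from the test, and for that reason it gave 0 in HS_AOSFMT vs HS_conFMT, in the 4 HS groups vs AOS and control, and in HS_AOSFMT vs control (1 each as reported), and 1 in HS_AOSFMT vs HS_AOS and in the F test (2 each as reported). HS_AOSFMT vs HS_conFMT gave 2 with the 3 libraries set aside, where Col4a1 passed (0.41, adjusted p = 0.0386), and 1 to 2 with 1 library left out. HS_AOSFMT vs HS_AOS gave 1, without Timp3, under the sum scaling and with the 3 libraries set aside, and 1 to 2 with 1 library left out; the F test gave 1 to 2, the 1 without HS_AOSFMT 3. The cause of these moves beside the filter was not tested. Correlated pairs numbered 5 to 7 (7 as reported).

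The titles number the replicates alike in each group. Deviations from the group means of 45 same-numbered pairs of libraries correlated at -0.366 to 0.487 (median 0.018, 15 over 0.1), and 9 of 18 libraries were closest to their own number, so the numbers were not taken as pairs, except in HS_AOS with HS, where all 3 pairs were over 0.1 and the block changed no member's call. With the replicate block, the members called were 2 in HS_AOSFMT vs HS_conFMT and 2 in HS_AOSFMT vs control, each with Col1a1 added (-0.61, adjusted p = 0.0151, and -0.40, adjusted p = 0.0471), and 3 in HS_AOSFMT vs HS (Col1a1 -0.51, adjusted p = 0.0235).

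Depth is unknown, and with 3 libraries a group the 95% intervals of Dcn and Lum were the widest among the members, from -0.21 to 1.41 for Dcn in HS_AOSFMT vs HS.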

Other observations

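The ratio of Col1a1 to Col1a2 FPKM, the partner chains of type I collagen, was 0.309, 0.335 and 0.285 in HS_AOSFMT (mean 0.310 ± 0.025, SD, n = 3) and 0.478, 0.367 and 0.362 in HS (0.402 ± 0.066). HS_conFMT had a mean ratio of 0.403 ± 0.066, HS_AOS 0.377 ± 0.026, AOS 0.356 ± 0.015 and control 0.401 ± 0.069. All 3 HS_AOSFMT ratios were below all 3 HS ratios and all 3 HS_conFMT ratios. The log2 difference was -0.37 in both comparisons, with an exact permutation p of 0.1, two-sided and the smallest that 3 against 3 libraries allow. Against control the difference was -0.36, with an exact permutation p of 0.2, since control 3 (0.334) lay below HS_AOSFMT 2 (0.335). These 4 comparisons, of which HS against control was the last (0.01, exact permutation p = 1.0), were not adjusted, and the ratio was chosen after the values were seen.

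Col4a1 and its partner chain in type IV collagen, Col4a2, correlated at r = 0.90 (rho = 0.89) over the 18 libraries, as a description. Col4a2 had 18.5, 15.4 and 16.9 FPKM in HS_AOSFMT and 13.5, 13.4 and 14.5 FPKM in HS_conFMT. These groups did not overlap for it either, as was so with HS_AOSFMT higher for 21.5% of genes. Col4a1 and Col4a2 overlap in the annotation, so reads may be shared. The pair was named after its values were seen.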
